A study of Mus musculus with 8 samples.

Results

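Of 56832 genes in the table, 10 plaque-associated genes of microglia were described here: Spp1, Itgax, Clec7a, Gpnmb, Lgals3, Igf1, Cd9, Cd63, Fabp5 and Cd52. They were chosen by name from what is known of microglia near amyloid plaques, with earlier results of these data known. Each encodes a protein that sits at the cell surface, travels in vesicles, is secreted or, for Fabp5, carries lipids inside the cell. The cells were microglia, the resident macrophages of the brain, sorted by fluorescence from young adult male 5xFAD mice. In this line neurons express mutant human transgenes under the Thy1 promoter, and amyloid plaques form. All 8 libraries came from this line, and no library without the transgenes was analysed here. The ethanol group (4 RNA-seq libraries) was injected into the peritoneum with 3 g/kg of ethanol as a 20% solution on 5 days of each week for 4 weeks and then left for 2 weeks of withdrawal. The saline group (4 libraries) received saline on the same schedule. Whether the libraries of a group are from different mice is not stated in the labels, so p-values measure only the spread between these libraries, which may be technical.

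Microglia that touch amyloid plaques leave their resting program and enter the state called disease-associated, in which the receptor TREM2 and its adaptor are needed for the full response. Cells in this state make adhesion receptors, secreted factors and lysosomal and lipid-handling proteins. Itgax encodes CD11c, an integrin chain used to mark these cells. Clec7a encodes Dectin-1, a receptor for beta-glucans. Spp1 encodes osteopontin, a secreted ligand of integrins and CD44.

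Library depth ran from 14271351 to 17231301 reads in genes. Values are normalized counts, that is, the authors' counts divided by 1 size factor per library. Homeostatic microglia markers such as P2ry12 and Tmem119 made up 5.27% to 5.80% of the normalized counts in every library. Tests covered the 14428 genes whose mean reached 10 normalized counts, and 9 of the 10 genes were among them. Gpnmb did not reach this mean.

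No plaque-associated gene was called higher or lower after ethanol. In limma 0 of the 9 tested genes passed a Benjamini-Hochberg adjusted p of 0.05, as did 0% of all genes tested, and 0 of the 9 had an unadjusted p under 0.05, against 3.63% of all genes. For all genes together 524 had an unadjusted p under 0.05 in limma, 495 in edgeR and, among the 26812 genes that DESeq2 tested without the filter, 777 in DESeq2. In each of the 3 tools 0 genes passed the adjustment. The ethanol and saline values overlapped in all 10 genes, and failed to overlap in 2.32% of the genes tested. The fold was below 1 for 6 of the 9 genes and above 1 for 3, with a median log2 fold change of -0.06, while 51.2% of all genes were below 1 and their median was -0.01. In bulk RNA, fewer plaque-associated cells and less transcript per cell cannot be told apart.

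**Figure D1:**
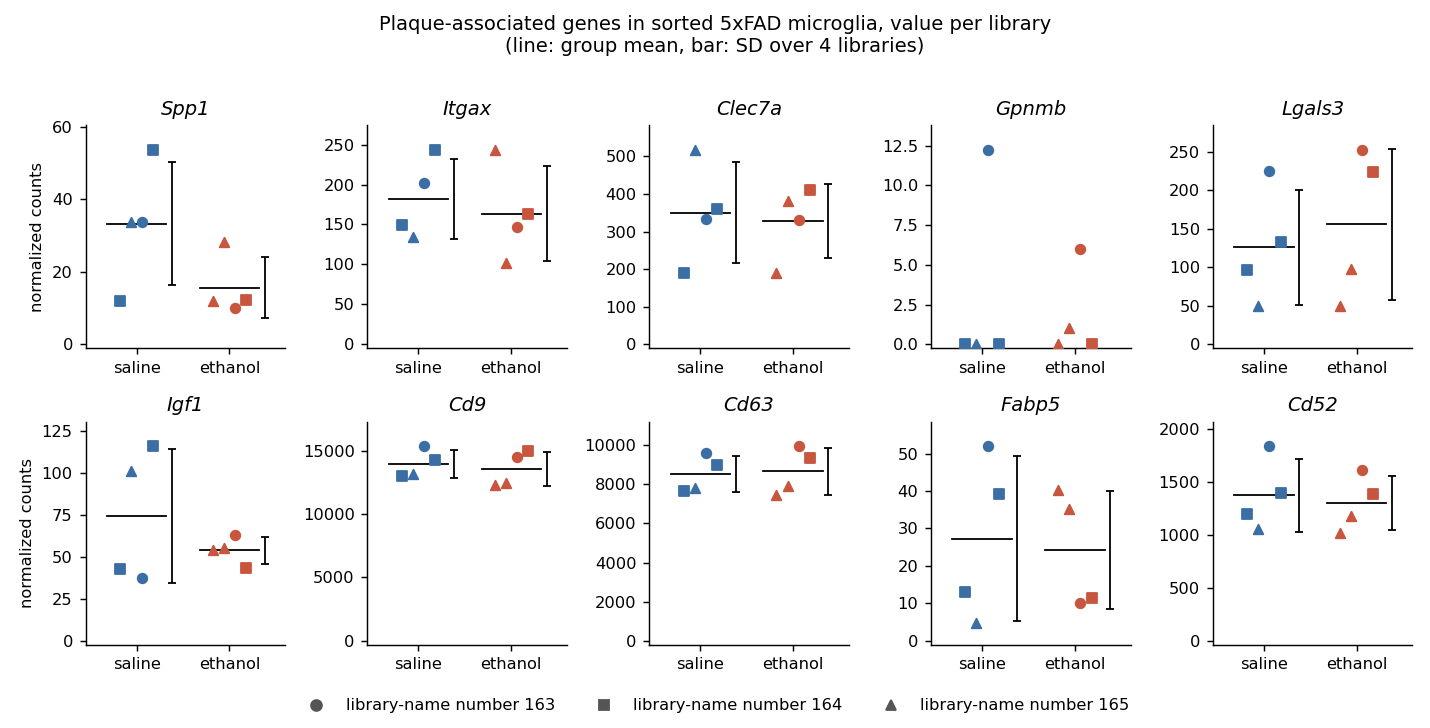
Normalized counts (vertical axes, linear and starting at or just under 0) of the 10 genes in each of the 4 saline and 4 ethanol libraries; the horizontal line is the group mean, the bar its SD (not drawn for Gpnmb), and the symbol gives the number that starts the library's name. In every panel the saline and ethanol points overlap.

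Levels between genes were compared per kilobase of exon, with exon lengths from a GENCODE annotation of the older build GRCm38. Cd9 came first at 6737 ± 574 normalized counts per kilobase, followed by Cd63 at 2333 ± 268 and Cd52 at 1126 ± 238 (SD over 8 libraries, both groups). The ranges of these 3 genes did not overlap each other or that of the next gene. Clec7a stood far lower at 129 ± 41.6 per kilobase, then Lgals3 at 75.9 ± 44.2 and Itgax at 36.0 ± 10.8, and each of these overlapped the next in range. Spp1 at 14.8 ± 9.45, Fabp5 at 7.20 ± 4.99 and Igf1 at 6.48 ± 2.93 overlapped as well. Gpnmb, at 0.369 per kilobase, had a mean below the lowest library of each of the others. With the length of the longest coding transcript in place of all exons, Spp1 and Fabp5 changed places and the other genes kept their rank. The tetraspanin genes and Cd52 were therefore the abundant members, and Clec7a, Itgax and Spp1 were present at low levels.

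Among the secreted factors, Spp1 had the lowest fold. Its 4 saline libraries held 12.02, 33.8, 33.6 and 53.6 normalized counts, in the order of samples 1 to 4, and its ethanol libraries held 11.9, 28.1, 10.03 and 12.3. Saline 4 was the highest and saline 1 lay among the ethanol values, so the groups overlapped. The fold was 0.504 with a 95% interval of 0.226 to 1.13 on the log2(value + 1) scale (limma adjusted p = 0.997, unadjusted 0.0897). These values rest on 10 to 59 reads per library, and a change of 2-fold in the lower direction lies inside the interval. Spp1 was lower in ethanol in each of the 17 alternatives that kept it, but did not pass in any of them.

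Igf1 encodes insulin-like growth factor 1, a survival factor that microglia supply to developing white matter. Its saline libraries held 42.5, 101, 37.7 and 116 normalized counts and its ethanol libraries 54.3, 55.1, 63.2 and 43.2. The saline values fell into a low and a high pair, samples 1 and 3 against samples 2 and 4, and the ethanol values lay between these pairs. The SD was 40.2 in saline and 8.20 in ethanol around means of 74.5 and 54.0 (n = 4 each). The fold was 0.812 (95% interval 0.468 to 1.41, limma adjusted p = 0.997).

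Lgals3 encodes galectin-3, a lectin that binds beta-galactosides and is released by activated microglia. It held 96.2, 49.2, 225 and 133 normalized counts in saline samples 1 to 4 and 49.97, 97.2, 253 and 224 in ethanol samples 1 to 4. Sample 3 was high in both groups, and the 8 values spanned 5.13-fold from lowest to highest. The group means of 126 ± 74.6 and 156 ± 97.8 (SD, n = 4 each) differed by less than either SD. The fold was 1.18 (95% interval 0.588 to 2.37, limma adjusted p = 0.997).

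Of the surface receptors, Itgax held 150, 134, 202 and 243 normalized counts in saline and 243, 101, 146 and 163 in ethanol. The highest saline value, in sample 4, and the highest ethanol value, in sample 1, were nearly the same. The fold was 0.879 (95% interval 0.597 to 1.29, limma adjusted p = 0.997). Clec7a held 189, 517, 333 and 361 in saline and 189, 382, 331 and 411 in ethanol. Sample 1 had the lowest Clec7a of both groups, and the means of 350 ± 135 and 328 ± 98.4 (SD, n = 4 each) lay close together. The fold of Clec7a was 0.956 (95% interval 0.641 to 1.43, limma adjusted p = 0.997). Both genes thus varied more than 2-fold between libraries of the same kind of cell, which sets the width of their intervals.

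Gpnmb encodes a transmembrane glycoprotein of lysosomes and the cell surface that is known from lipid-laden macrophages. It was read in 3 of 8 libraries, with 12 reads in saline 3, 6 in ethanol 3 and 1 in ethanol 2, and 0 in the other 5. At 12.2, 6.02 and 1.00 normalized counts it was too low to test, and 0 reads in a library still allow up to 3 by counting error alone. The reads in both groups came mainly from sample 3.

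The tetraspanins CD9 and CD63 organise other membrane proteins, CD9 mostly at the cell surface and CD63 in late endosomes and exosomes. Cd9 held 13043, 13149, 15390 and 14299 normalized counts in saline and 12350, 12431, 14510 and 14984 in ethanol. Its fold was 0.970 with the narrowest interval of the 9 genes, 0.867 to 1.08 (limma adjusted p = 0.997). Cd63 held 7659, 7840, 9587 and 8985 in saline and 7433, 7922, 9963 and 9334 in ethanol. In both genes and both groups, samples 3 and 4 were above samples 1 and 2. The fold of Cd63 was 1.01 (95% interval 0.883 to 1.16, limma adjusted p = 0.997).

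Cd52 encodes a short peptide held in the membrane by a lipid anchor and covered by a large sugar chain. It held 1197, 1057, 1841 and 1402 normalized counts in saline and 1020, 1179, 1611 and 1385 in ethanol. Sample 3 was the highest in each group, and samples 1 and 2 the lowest. The fold was 0.952 (95% interval 0.754 to 1.20, limma adjusted p = 0.997). Fabp5, a fatty acid binding protein, held 12.9, 4.83, 52.0 and 39.1 in saline and 40.2, 35.1, 10.03 and 11.3 in ethanol. Its high libraries were samples 3 and 4 in saline and samples 1 and 2 in ethanol, so that the groups covered almost the same range. The fold was 1.04 with the widest interval, 0.372 to 2.91 (limma adjusted p = 0.997), and it was below 1 in edgeR and DESeq2.

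The 95% intervals give how large a difference between the groups the spread of these libraries leaves room for. This spread may be technical, so the intervals need not bound an effect of ethanol over mice. On that spread they excluded a change of 1.5-fold in either direction for Cd9, Cd63 and Cd52. A change of 2-fold was excluded for 5 of the 9 genes, which adds Itgax and Clec7a. Among all genes tested, 8117 of 14428 excluded 1.5-fold and 10555 excluded 2-fold. For Spp1, Igf1, Lgals3 and Fabp5 a 2-fold change in at least 1 direction was not excluded.

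**Figure D2:**
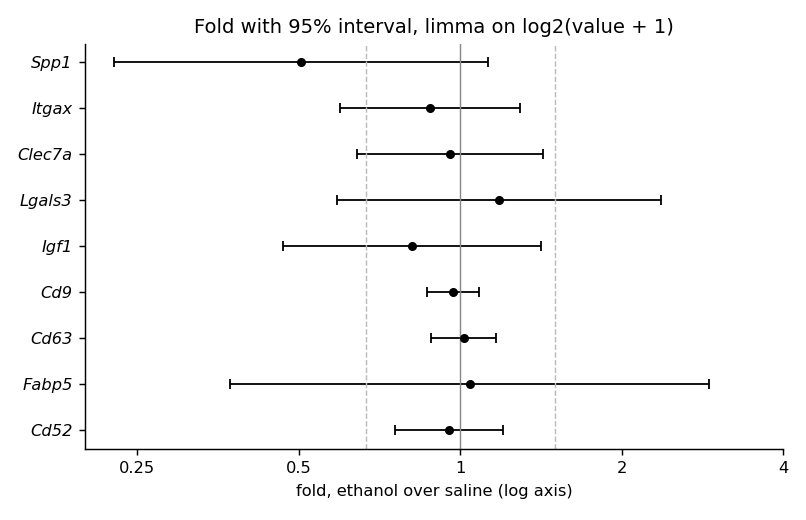
Fold of ethanol over saline (horizontal log axis) for the 9 tested genes, with points for the limma estimate on log2(value + 1) and bars for its 95% interval; the solid line marks no difference and the dashed lines 1.5-fold in either direction. All 9 bars cross the solid line, and those of Cd9, Cd63 and Cd52 stay within the dashed lines.

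The genes did not vary between libraries as 1 block. Of 36 pairs among the 9 tested genes, 4 had a Pearson r past a Benjamini-Hochberg adjusted p of 0.05 in an exact permutation test of log2 values over 8 libraries, two-sided over 40320 arrangements. These were Lgals3 with Cd63, Lgals3 with Cd52, Cd63 with Cd52, and Cd9 with Cd52. For Lgals3 and Cd63 r was 0.93 (exact p = 0.00191, adjusted p = 0.0301), Spearman's rho was 0.93 (exact p = 0.00223, adjusted p = 0.0771), and r was 0.96 without the 2 libraries farthest from the median of Lgals3. For Lgals3 and Cd52 r was 0.92 (exact p = 0.00188, adjusted p = 0.0301), rho was 0.90 (exact p = 0.00456, adjusted p = 0.0771), and r was 0.84 without the farthest 2. Cd63 and Cd52 had an r of 0.92 (exact p = 0.00250, adjusted p = 0.0301), a rho of 0.88 (exact p = 0.00724, adjusted p = 0.0771) and an r of 0.90 without the farthest 2. Cd9 and Cd52 had an r of 0.89 (exact p = 0.00456, adjusted p = 0.0411), a rho of 0.86 (exact p = 0.0107, adjusted p = 0.0771) and an r of 0.78 without the farthest 2. Cd9 with Cd63 and Cd9 with Lgals3 had r of 0.92 and 0.86 but did not pass (exact permutation, adjusted p = 0.0559 and 0.0824). No pair passed with Spearman's rho. How often pairs of other genes reach such an r was not computed, so the 4 pairs are not read as a trait of these genes.

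The calls depended on single libraries. The number of pairs that passed was 0 without saline 4 and 0 without ethanol 1, and it was 1 without saline 1 and 1 without saline 2, while r of the 4 pairs stayed between 0.84 and 0.96 whichever library was left out. Spp1, Itgax and Clec7a, the genes most tied to plaque contact, were in no pair that passed. Itgax and Clec7a had an r of -0.38 (exact permutation p = 0.348, adjusted p = 0.912), a relation that 8 libraries could not tell from none. With 8 libraries a relation of moderate size would not pass this test.

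**Figure D3:**
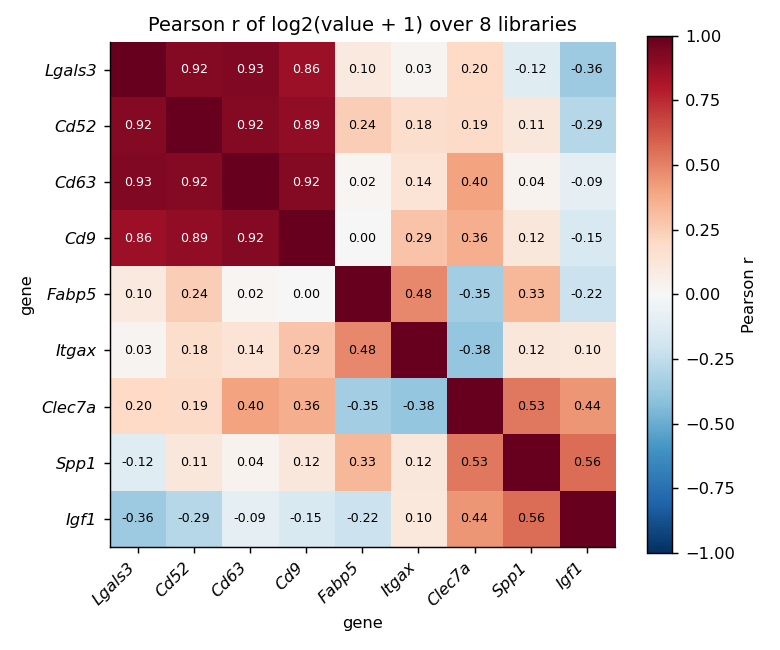
Pearson r of log2(value + 1) over 8 libraries for each pair of the 9 tested genes (rows and columns), coloured from -1 to 1. Lgals3, Cd52, Cd63 and Cd9 form a square of r between 0.86 and 0.93, and the other 5 genes stay outside it.

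The promoters of Lgals3, Cd63 and Cd9 are shown because each gene was in a pair that passed, although Cd9 passed with neither of the other two. RefSeq's table for the build GRCm38.p6 matched 8 of the 10 genes, Cd52 and Fabp5 excepted, and each entry runs from 250 bases before to 50 after a transcription start. Capitals mark matches, on either strand, to GGAAGT (the core bound by ETS factors such as PU.1), CACGTG (the E-box that MiT/TFE factors bind) and TGACTCA (the AP-1 site).
Lgals3 (chr14:47373610-47373909, plus strand): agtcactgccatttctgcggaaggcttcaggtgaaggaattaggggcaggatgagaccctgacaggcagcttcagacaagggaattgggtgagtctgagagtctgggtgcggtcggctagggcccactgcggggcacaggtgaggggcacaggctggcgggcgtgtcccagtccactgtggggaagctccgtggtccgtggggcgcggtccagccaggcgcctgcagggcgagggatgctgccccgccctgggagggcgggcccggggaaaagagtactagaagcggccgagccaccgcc
Cd63 (chr10:128909095-128909394, plus strand): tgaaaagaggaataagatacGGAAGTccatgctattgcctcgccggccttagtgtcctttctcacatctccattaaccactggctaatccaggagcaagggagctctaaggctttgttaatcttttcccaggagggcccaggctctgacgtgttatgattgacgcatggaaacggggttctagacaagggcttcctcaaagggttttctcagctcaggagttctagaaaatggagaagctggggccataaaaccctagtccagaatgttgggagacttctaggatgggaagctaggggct
Cd9 (chr6:125494711-125495010, minus strand): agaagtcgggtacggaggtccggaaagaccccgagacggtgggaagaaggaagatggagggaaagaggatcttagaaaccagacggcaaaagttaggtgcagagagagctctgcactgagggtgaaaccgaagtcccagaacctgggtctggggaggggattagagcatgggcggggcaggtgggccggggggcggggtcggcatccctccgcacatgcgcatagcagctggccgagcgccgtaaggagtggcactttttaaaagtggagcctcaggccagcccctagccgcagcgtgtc
The Itgax window is shown beside them because it held the most matches, 3, and Itgax did not vary with this set.
Itgax (chr7:128129300-128129599, plus strand): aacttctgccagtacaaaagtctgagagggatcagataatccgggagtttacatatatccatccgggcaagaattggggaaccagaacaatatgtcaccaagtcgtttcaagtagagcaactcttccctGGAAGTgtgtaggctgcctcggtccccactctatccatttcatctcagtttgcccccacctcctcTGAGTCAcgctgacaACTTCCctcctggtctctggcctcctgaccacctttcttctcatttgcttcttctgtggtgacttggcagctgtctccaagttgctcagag
Lgals3 and Cd9 are rich in G and C in this window, at 67.0% and 61.3%, against 49.3% in Cd63, 50% in Itgax and a median of 52.7% over all promoters of the table. GGAAGT or its complement was present in 3 of the 10 windows of these genes (Cd63, Itgax and Spp1) and in 23.8% of all 32851. TGACTCA was present in 2 (Gpnmb and Itgax) and in 5.20% of all, and CACGTG in 0 and in 7.15%. Apart from 1 GGAAGT in Cd63, the windows of Lgals3, Cd63 and Cd9 held none of these letters.

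The levels of these 4 genes differed with a number in the library names. Library names begin with 163, 164 or 165, which the labels do not explain. Number 163 covers saline 3 and ethanol 3, number 164 covers saline 1, saline 4 and ethanol 4, and number 165 covers saline 2, ethanol 1 and ethanol 2. Cd52 averaged 1726 normalized counts under 163, 1328 under 164 and 1085 under 165, and the ranges of the 3 numbers did not overlap, a descending order found in 0.645% of the genes tested (the ascending order was found in 0.36%). Lgals3 averaged 239, 151 and 65.5, a 4.06-fold difference between 163 and 165 in the fit with the group as a term. Cd63 averaged 9775, 8659 and 7732, and Cd9 averaged 14950, 14109 and 12644. All 4 genes were higher in each 163 library than in each 165 library, which held for 4 of the 9 tested genes and for 15.7% of all genes.

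A limma F test of the number, with the group as a term, was run after these values were seen. The unadjusted p was 8.75e-05 for Lgals3, 0.000333 for Cd52, 0.00296 for Cd63 and 0.0144 for Cd9. None of the 4 passed when adjusted over all genes (adjusted p = 0.0890, 0.122, 0.245 and 0.372), and 3 of 14428 genes did, or 0.0208%. An unadjusted p under 0.05 was found in 4 of the 9 genes and in 10% of all genes. Lgals3 passed without saline 1 (adjusted p = 0.0401) and without saline 4 (adjusted p = 0.0475). Within 1 number there are at most 3 libraries, too few for a correlation. After the means of number and group were removed, r was 0.90 for Lgals3 with Cd52, 0.72 for Lgals3 with Cd63, 0.70 for Cd63 with Cd52 and 0.64 for Cd9 with Cd52, given as a description. Pairs outside the set reached like values there: r was 0.92 for Clec7a with Cd63, 0.90 for Spp1 with Cd52, 0.79 for Clec7a with Lgals3, 0.78 for Spp1 with Cd63 and 0.78 for Clec7a with Cd9. Before the means were removed these 5 pairs had r between 0.04 and 0.40, so which genes varied together depended on this step. With the number as a term, the fold of ethanol over saline was 1.498 for Lgals3 (95% interval 0.996 to 2.25, limma adjusted p = 0.933) and 1.00 for Cd52 (0.864 to 1.16, adjusted p = 0.999).

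**Figure D4:**
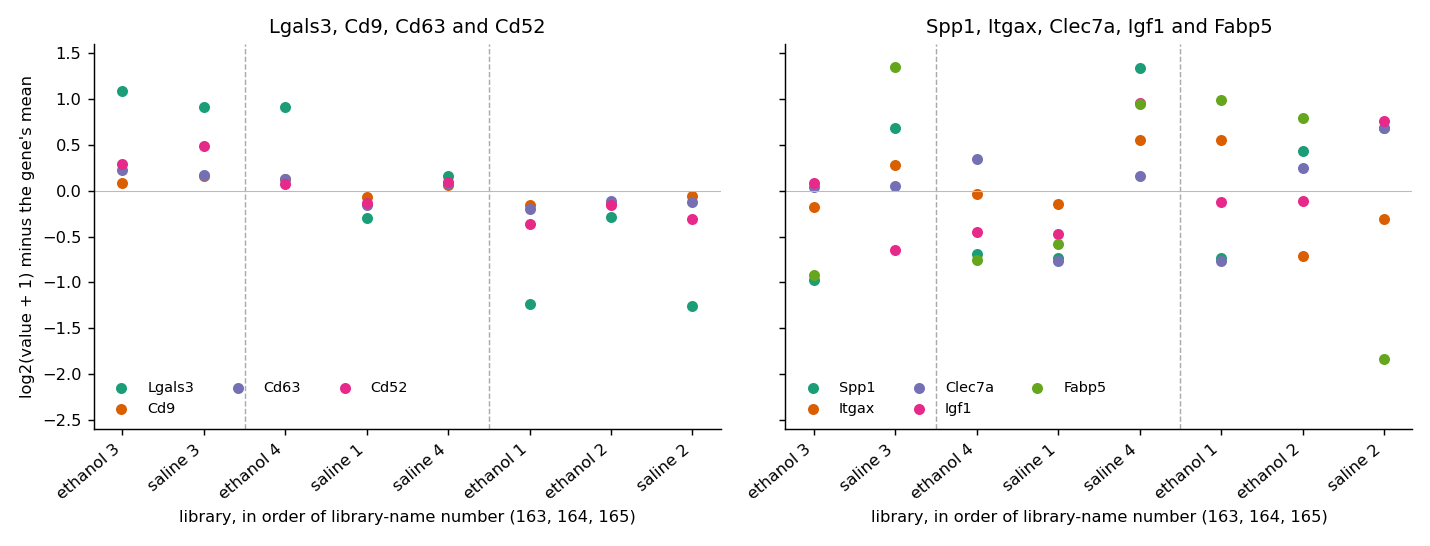
Log2(value + 1) minus the gene's mean over 8 libraries (vertical axis) for 9 genes in each library, with libraries in the order of the number in their names and dashed lines between numbers. Lgals3, Cd9, Cd63 and Cd52 (left) are above 0 in the 163 libraries and below 0 in the 165 libraries, and Spp1, Itgax, Clec7a, Igf1 and Fabp5 (right) have no such order.

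Genes with the most similar profiles over libraries were found by distance. Among the 3 genes closest to Cd9 of 9187 compared, by root mean square distance of standardised log2 profiles, were the ribosomal protein genes Rps19 (0.187) and Rpl32 (0.188). The closest to Cd63 were the glutathione transferase gene Gstm5 (0.185), the leukotriene C4 synthase gene Ltc4s (0.199) and the respiratory chain gene Ndufs5 (0.210). For Cd52 they were the myosin light chain gene Myl6 (0.181), Bcl2a1a (0.222) and Hnrnpa0 (0.233), and for Lgals3 the respiratory chain genes Ndufb9 (0.253) and mt-Nd1 (0.254) and then Bccip (0.263). Cd63 ranked 28 and Cd52 ranked 49 among the neighbours of Lgals3, so other genes lay closer to it than they did. The genes closest to Itgax were Dlx1as (0.292), Zmat3 (0.314) and Fpgt (0.423), and those closest to Clec7a included Vps11 (0.327) and Spring1 (0.367). A smallest distance among so many genes is small by choice. Bcl2a1a has near-identical copies in the genome and its value is uncertain.

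Composition of the libraries moved with the same set. Ribosomal protein genes (84 genes) made up 1.51% and 1.41% of the normalized counts under number 163, 1.15% to 1.40% under 164 and 1.08% to 1.17% under 165. The 13 mitochondrial protein-coding genes made up 1.34% and 1.20%, 1.04% to 1.22%, and 0.865% to 0.939%. The part of this composition in the values of Lgals3, Cd63, Cd9 and Cd52 was not tested.

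Markers of other cells made up small shares of the counts. Over 10 lists, homeostatic markers included, no summed share passed an exact permutation test of ethanol against saline (two-sided, 70 arrangements). The smallest p was 0.0571 by the exact test (adjusted p = 0.286), reached by homeostatic microglia markers and by dendritic cell markers. Homeostatic markers averaged 5.39% in saline and 5.66% in ethanol, and dendritic cell markers 0.185% and 0.176%. Of the 12 homeostatic markers 9 had a fold above 1 and 3 below, where 51.2% of all genes were below 1. For 2 of these markers the groups did not overlap, both higher in ethanol, where 1.12% of all genes were higher without overlap. Before adjustment the design cannot go below 0.0286, so after adjustment over 10 lists 1 list alone could not pass. Monocyte markers, 9 of 10 with a mean of at least 10 and none at 0 in every library, made up 0.00341% to 0.00758% in saline and 0.00287% to 0.00766% in ethanol. Of the 9, 7 were higher in each 163 library than in each 165 library, against 15.7% of all genes. The markers did not share 1 order. Chil3, the most abundant, was highest in saline 1, at 865 normalized counts, against 60.0 to 356 in the other 7. Treml4, a marker of patrolling monocytes, reached 165 normalized counts in ethanol 4, 153 in ethanol 3 and 98.9 in saline 3. Saline 4 had 26.3 and the remaining 4 libraries 0 to 12.5, so the 3 highest libraries of Treml4 were those of Lgals3. The peptidase gene Ace was highest in the same 3 libraries, at 63.2 to 83.3, against 0 to 20.0 elsewhere. Ccr2, which defines classical monocytes, was highest in ethanol 3, at 291, but held 186 in saline 3 and 178 in ethanol 4, within the 124 to 248 of the other 5. Ly6c2 held 82.6, 60.2 and 59.7 in saline 3, ethanol 3 and ethanol 4, against 4.54 to 54.6 elsewhere. Cd44, which monocytes also make, held 66.3, 57.2 and 56.6 in saline 3, ethanol 3 and ethanol 4, against 3.26 to 26.3 elsewhere. The part of these markers in the values of Lgals3 was not tested.

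Dendritic cell markers bear on Itgax, which those cells also make. They made up 0.178% to 0.191% in saline and 0.173% to 0.180% in ethanol, mostly through Siglech and Fscn1, and Siglech is also a homeostatic microglia gene. Defining genes of dendritic cells differed in level. Ccr7 was at 0 in every library, Xcr1 at most 8.69 and Clec9a at most 4.12 normalized counts, but Zbtb46 held 88.2 to 147, Flt3 held 20.0 to 72.0, Cd209a 0 to 108 and Clec10a 4.08 to 61.8. Itgax itself held 101 to 243 normalized counts, but Zbtb46 and Itgax were not compared per kilobase of exon. The part of dendritic cells in the values of Itgax was not tested. For Cd52, which lymphocytes make in quantity, Cd3d, Cd3e, Ms4a1, Trbc1 and Ncr1 were at 0 in every library, and 1 of 14 lymphocyte markers, Cd79b, was measured at a mean above the filter, with 563 to 1033 normalized counts. The lymphocyte share was 0.00414% to 0.00662% in saline and 0.00376% to 0.00663% in ethanol.

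Neutrophil markers (11 of 12 with a mean of at least 10, Stfa2 at 0 in every library) made up 0.0719% to 0.147% in saline and 0.0691% to 0.1199% in ethanol. The share was led by Csf3r, at 7473 to 8676 normalized counts, and by Ngp and S100a8, which were highest in saline 1, a library among the lower ones for Lgals3 and Cd52. Retnlg instead held 572 in ethanol 4, 353 in saline 3 and 352 in ethanol 3, the 3 highest libraries of Lgals3, against 18.5 to 222 elsewhere. Mmp8 was highest in the same 3, at 122 to 323, against 4.62 to 99.0. Of the 11 neutrophil markers 8 were higher in each 163 library than in each 165 library, against 15.7% of all genes. The part of these markers in the values of Lgals3 and Cd52 was not tested. Border macrophage markers (11 of 12, none at 0 throughout) made up 0.0537% to 0.0788% in saline and 0.0556% to 0.0715% in ethanol. Most of this share was Stab1, at 7912 to 9861. Cd163 held 18.2 to 297, Mrc1 232 to 762 and F13a1 142 to 750, each highest in saline 2, the lowest library of Lgals3. Oligodendrocytes and astrocytes also make Cd9 and Cd63. Their markers made up 0.0190% to 0.0211% and 0.0447% to 0.0559% in saline, and 0.0185% to 0.0210% and 0.0411% to 0.0596% in ethanol. Endothelial and mural markers stayed between 0.00279% and 0.00353%, and neuron markers between 0.00116% and 0.00203%, over all libraries.

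Of the receptors and signalling partners of the 10 genes, 0 passed the limma test in either direction, and their intervals differed widely in width. Of the receptors and proteases of osteopontin 9 of 11 were tested, with Itgb5 at a fold of 1.00 (95% interval 0.882 to 1.14) and Itgb1 at 1.06 (0.958 to 1.17) the most abundant. Cd44, another osteopontin receptor, averaged 27.9 ± 26.8 normalized counts after saline and 33.8 ± 27.4 after ethanol (SD, n = 4 each), with a 95% interval of the fold from 0.334 to 3.48. In this list 6 of the 9 excluded a 2-fold change, against 10555 of all 14428 genes tested. Itgb2, which encodes the beta chain that pairs with CD11c, had a fold of 1.02 (0.916 to 1.14), and Fermt3, an activator of integrins, 0.991 (0.904 to 1.09). In this list 7 of 8 genes were tested.

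Of 14 genes listed for Dectin-1 signalling 12 were tested, and the list also holds the separate receptor genes Clec4n, Clec4d and Clec4e. Syk, the kinase that Dectin-1 recruits, had a fold of 1.01 (95% interval 0.897 to 1.14). Card9, the adaptor that carries the Dectin-1 signal on, had 0.848 (0.691 to 1.04), with 574 ± 93.8 normalized counts after saline and 483 ± 44.1 after ethanol (SD, n = 4 each). Fcer1g and Vav1, the most abundant of the list, had folds of 0.986 and 1.04. For IGF signalling 5 of 13 genes were tested, led by Insr at 0.970 and Igf1r, the receptor, at 1.03 (0.874 to 1.21). Among 19 of 22 tetraspanins and partners tested, Cd81 and Cd53 were the most abundant, with folds of 1.02 (0.932 to 1.12) and 1.01 (0.921 to 1.10). Mitf, a factor that can drive Gpnmb, had 0.992 (0.834 to 1.18), and its relatives Tfe3 and Tfeb had 1.09 (0.982 to 1.21) and 0.992 (0.851 to 1.16), with 5 of 5 genes of that list tested.

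The other galectin genes gave 5 tested of 7, with Lgals9 at a fold of 1.07 (95% interval 0.927 to 1.24) and Lgals3bp, which encodes a ligand of galectin-3, at 0.969 (0.787 to 1.19). Of fatty acid binding proteins and PPARs 3 of 10 were tested. The most abundant were Rxra at 0.917 (0.778 to 1.08) and Ppard at 1.03 (0.844 to 1.26). Of 4 genes listed as possible partners of CD52, the most abundant were Siglech at a fold of 0.924 (0.852 to 1.00) and Hmgb1 at 0.958 (0.863 to 1.06). These data do not show whether Siglech encodes a partner of CD52. Of 40 other plaque-associated microglia genes 36 were tested. Their median log2 fold change was -0.06, against -0.01 for all genes. Of the 36, 10 were above 0 and 26 below, where 51.2% of all genes were below 0. Trem2 had a fold of 0.953 (0.876 to 1.04), Cst7, a cystatin, 0.846 (0.624 to 1.15), and the most abundant, the cathepsin genes Ctsd and Ctsb, 1.02 and 1.01. In this list 2 genes had groups that did not overlap, both lower in ethanol, where 1.2% of all genes were lower without overlap. These were Cd300lf and Timp2, named after their values were seen.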

How the data were processed

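The members and the gene lists were chosen with earlier results of these data known. The build GRCm39 and, as tools, featureCounts 2.0.1 of Subread, Salmon 1.5.2, STAR 2.7.9a, bcl2fastq 2.19.1, R 4.2.2 and DESeq2 are listed per the submitters' processing notes. The role of each tool, its parameters and the annotation: not given in the sources used here. Per the labels' protocols, 500 pg of RNA per library was amplified with a SMARTer Ultra Low Input kit and made into libraries with NexteraXT, which does not mark strand, so overlapping antisense genes cannot be told apart. The authors deposited 1 table of signal values, DESeq2-normalized counts per gene. Within 1e-06, 100% of the non-zero values of each library were whole multiples of its smallest value, so reads could be recovered. For ethanol 2 and ethanol 3 that step lies so near 1 that an automated check of units could not accept their reads as recovered, so fits on recovered reads (edgeR, DESeq2 and TMM) are alternatives only and rest on this reading for those 2 libraries.

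The main test was limma 3.58.1 on log2(value + 1) (R 4.3.3, intensity trend, two-sided, Benjamini-Hochberg over 14428 genes with a mean of at least 10), which understates changes of low genes. Fits were tested on simulated data. Libraries carry no molecular identifiers, so counting limits cover counting error only. Named genes were the 10 members, the 2 most abundant genes of each partner list, 9 fixed genes and the 3 nearest profiles of each member with a mean of at least 100, of which some are not reported here. The alternatives changed the pseudocount (0.5 or 5), the filter (none, or a mean of 50), the scaling (TMM or quantile) and the tool (edgeR 4.0.16 or DESeq2 1.42.0 on recovered reads), added the sample number as a block or the library-name number as a covariate, or left out each library in turn. The F test of the library-name number was added after seeing the data.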

Additional observations from a re-analysis of the deposited data

Results flagged for a closer look

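In 6 of 130 groups of 4 libraries checked, 1 library lay far from the other 3 by the range test, and chance flags about 1 group in 20. Spp1 in ethanol 2, at 28.1 normalized counts, stood above the next ethanol library at 12.3. Gpnmb was flagged in saline 3, at 12.2 with the other saline libraries at 0, and in ethanol 3, at 6.02 with the next at 1.00. Fermt3 in ethanol 2 was at 9692, above the next at 8755. Igf1r in saline 3 was at 945, above the next at 816. The oligodendrocyte marker share in ethanol 1 was 0.0185% of the normalized counts, below the next at 0.0206%.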

How the results depend on the processing

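Over 160 combinations of a member with an alternative, 0 passed the adjusted threshold (smallest adjusted p 0.917), 140 kept the direction and 20 changed it. Spp1 and Igf1 kept their direction in all that were run. Spp1 and Fabp5 have no value at a mean of at least 50. Fabp5 had a log2 fold change of -0.17 in edgeR and of -0.17 in DESeq2, against 0.06 in limma. Cd52 had 0.0018 with the library-name number as a covariate, against -0.07. With 1 library left out, log2 fold changes ranged as follows: Itgax from -0.40 to 0.019, Clec7a from -0.33 to 0.18, Lgals3 from -0.14 to 0.69, Cd9 from -0.094 to 0.0033, Cd63 from -0.050 to 0.091, Fabp5 from -0.55 to 0.52 and Cd52 from -0.19 to 0.080. For these 7 genes the sign depended on which library was left out, and the cause was not tested. The number of member pairs past the threshold ranged from 0 to 6 with 1 library left out, against 4. No other-cell marker share passed under any alternative run, but 1 list alone could not pass there either. With the sample number as a replicate block, limma called 0 genes of 14428, and 645 had an unadjusted p under 0.05. Samples of the same number deviated together only weakly, with correlations over genes of 0.03, 0.06, 0.08 and 0.01 for samples 1 to 4, so the number was not taken as a pairing, and 0 of 4 saline libraries and 2 of 4 ethanol libraries correlated best with the library of their own number in the other group. Low reads limit Spp1, Gpnmb, Igf1 and Fabp5.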

Other observations

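The F test of the library-name number, added after seeing the data, called 3 genes, of which Jun is an immediate early gene, mt-Co1 a mitochondrially encoded subunit of cytochrome oxidase and Rn18s-rs5 a copy of ribosomal RNA, whose value is uncertain because its copies are near-identical. Jun held 4410 normalized counts in saline 3 and 3591 in ethanol 3, the libraries of number 163, against 1704 to 2303 in the other 6. The transcript mt-Co1 held 53673 and 47882 under 163, 38106 to 45160 under 164 and 29688 to 32295 under 165. With 1 library left out, between 0 and 33 genes passed this test, and over the other settings run it called between 0 genes, with no filter, and 9, at a mean of at least 50. The 3 calls therefore depend on the libraries and the filter used.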
